A study of Mus musculus with 11 samples.

Results

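The baseline transcriptome of mouse embryonic stem cells (ESCs) was described from the 3 control libraries of an RNA-seq series of 11 libraries. These 3 were chosen by their titles, and nothing measured entered the choice. The ESCs were of the E14 line, grown on gelatin in medium with 10% Knockout Serum Replacement and 100 U/ml leukaemia inhibitory factor (LIF), and were collected 36 h after transfection with a control siRNA of scrambled sequence. The other 8 libraries, 4 each of 2 siRNAs against the cap methyltransferase CMTR1 in the same cells and medium, are not analysed here, and all values below are of control 1, control 2 and control 3. The controls had themselves been transfected, so the baseline is that of cells after a transfection, in 1 line. RNA was depleted of ribosomal RNA (rRNA) and made into strand-specific libraries, so transcripts without a poly(A) tail, such as those of the replication-dependent histone genes, were also captured. The methods describe the replicates of the sequencing as biological, but the labels give no origin for each library, so the SDs (n = 3 throughout) measure the spread between these libraries, which may be technical.

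ESCs are derived from the inner cell mass of the blastocyst and keep the capacity to form all cell types of the embryo. A network of transcription factors around Pou5f1 (OCT4), Sox2 and Nanog maintains this state, while LIF and factors such as Klf4, Esrrb and Tfcp2l1 hold it in its naive form. ESCs divide fast with a short gap before replication, and so have a large demand for ribosomes, chromatin and the replication machinery.

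The libraries held 7876141, 8107684 and 7429926 reads in genes, which were 49.8, 51.7 and 50.8% of the reads listed; 41.2 to 43.2% lay in no gene, 5.92 to 6.01% aligned to several places and 1.03 to 1.05% were ambiguous between genes. Levels are given as CPM (counts of a gene per 1000000 reads in genes) or, wherever genes are compared with each other, as TPM (reads divided by the exon length of the gene, scaled to a sum of 1000000 per library). A count of 0 allows up to 0.404 CPM in the shallowest library, which is the level of 3 reads and covers counting error only. Of 54838 genes, 14636 had more than 1 CPM in all 3 libraries and are termed expressed. Of 21998 protein-coding genes, 12487 (56.8%) were expressed, and 4960 had no read in any library. The median level was 20.1 TPM over the expressed coding genes, with 10% of them below 2.51 and 10% above 109 TPM. Only 46 coding genes reached 1000 TPM, while 1395 reached 100, 8440 reached 10 and 12871 reached 1 TPM.

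The labelled cell type was checked against markers. All 30 genes of the core and naive pluripotency lists were at 1 TPM or more, Pou5f1 at 682, 705 and 666 TPM. Genes that define liver, blood and muscle were low: a single one of 10 liver genes, 4 of 11 blood genes and 5 of 11 muscle genes reached 1 TPM, and none reached 10 TPM. No read fell on 6 of the liver genes, among them Alb (albumin), or on 4 of the blood genes. Of 15 genes of fibroblasts and feeder cells, 8 reached 1 TPM and 3 reached 10 TPM; the highest was Vim (vimentin, an intermediate filament that ESCs also express) at 122 ± 4.04 TPM. The Y-linked translation factor gene Eif2s3y (57.6 ± 3.67 TPM) and the Y-linked helicase gene Ddx3y (41.8 ± 0.995 TPM) were expressed in every library; E14 is a male line. On the X chromosome Tsix, the antisense RNA of the inactivation locus, was at 35.5 ± 0.599 TPM, and Xist, the RNA that coats an inactive X, at 1.22 ± 0.384 TPM (74, 43 and 45 reads).

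The miR-290 cluster is the main group of microRNAs of mouse ESCs, where it shortens the gap before replication and supports self-renewal. It lies on chromosome 7 of GRCm38 within 2216 nt of the plus strand, chr7:3218626-3220841. Several of its mature products share a seed, the bases that pair with target mRNAs. The mature 3p sequences of RefSeq (GRCm38.p6) are shown because they are what the cluster makes, with the seed, bases 2 to 8, in capitals.
miR-290a-3p: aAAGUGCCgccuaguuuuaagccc
miR-291a-3p: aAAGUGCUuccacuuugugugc
miR-294-3p: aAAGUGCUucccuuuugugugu
miR-295-3p: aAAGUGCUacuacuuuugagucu
miR-291b-3p: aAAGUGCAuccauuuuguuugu
miR-293-3p: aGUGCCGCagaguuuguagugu
miR-302b-3p: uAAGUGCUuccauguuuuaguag
miR-302d-3p: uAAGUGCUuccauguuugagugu
miR-302c-3p: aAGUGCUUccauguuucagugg
The products miR-291a-3p, miR-294-3p and miR-295-3p carry the seed AAGUGCU, as do miR-302b-3p and miR-302d-3p of the miR-302/367 cluster on chromosome 3, which is known from primed cells. The seed of miR-290a-3p is AAGUGCC and that of miR-291b-3p AAGUGCA, while miR-293-3p has GUGCCGC. In miR-302c-3p the letters AAGUGCU start a base earlier, so its seed is AGUGCUU.

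Reads on the hairpins of these clusters come from precursor or host transcripts and do not measure mature miRNA, which is shorter than the 75-nt reads. The 7 plus-strand hairpins of the miR-290 cluster held 831, 657 and 693 reads, 93.3 ± 12.2 CPM. Mir291b had the most reads (314, 250 and 275) and Mir294 the fewest (59, 48 and 34). The other 5 lay between these, with Mir291a at 124, 94 and 95 reads, Mir293 at 97, 82 and 77, Mir290a at 91, 57 and 76, Mir292 at 79, 76 and 83, and Mir295 at 67, 50 and 53. Control 1 was highest at 6 of the 7 hairpins, and Mir292 was the exception. The hairpins of the miR-302/367 cluster together held 6, 2 and 3 reads. An exon of Nlrp12, an innate immune receptor gene, covers 6 of the 7 miR-290 hairpins on the minus strand and held 7, 3 and 6 reads over all of its 7545 nt, and the minus-strand hairpins Mir290b and Mir292b held none. The reads of this locus were thus assigned to the plus strand.

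**Figure D1:**
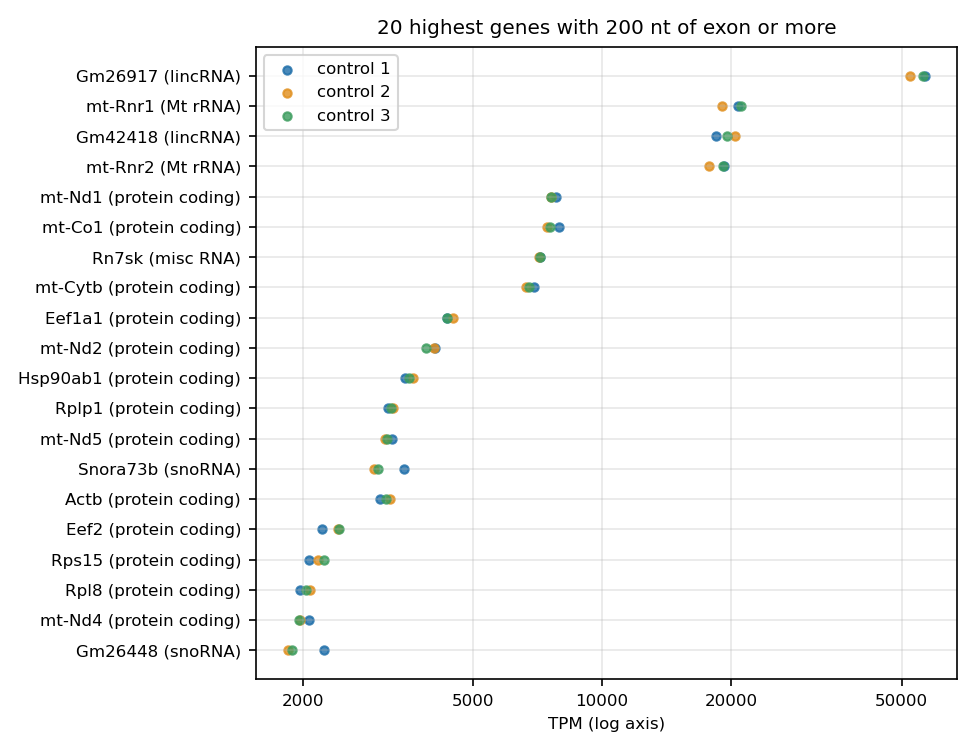
The genes of 200 nt or more with the highest levels, plotted as TPM on a log axis; each point is 1 of the 3 control libraries. Gm26917 lies far to the right at a mean of 55020 TPM, the mitochondrial rRNAs and Gm42418 form a group between 18749 and 20321 TPM, and mt-Nd1 leads the coding genes at 7678 TPM.

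The counts were led by transcripts of a locus on chromosome 17 with rRNA-related sequence, by mitochondrial transcripts and by the translation machinery. Gm26917 (chr17:39843013-39846341, plus strand, annotated as lincRNA) held 468464, 441393 and 438520 reads and had a level of 55020 ± 2472 TPM. Its neighbour Gm42418 (chr17:39846958-39848788, plus strand) held 83728, 95106 and 83919 reads, 19471 ± 1005 TPM. RefSeq lists Gm42418 under the older name Rn18s-rs5, a sequence related to rRNA, and on the other strand the rRNA gene CT010467.1 overlaps it with 142, 133 and 155 reads. Together Gm26917 and Gm42418 took 7.01, 6.62 and 7.03% of all reads in genes. The mitochondrial rRNAs followed, mt-Rnr1 (small subunit) at 20321 ± 1068 TPM and mt-Rnr2 (large subunit) at 18749 ± 837 TPM. In TPM, control 2 was lowest for Gm26917 (56735, 52186 and 56139), mt-Rnr1 and mt-Rnr2, and highest for Gm42418.

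The 20 genes with the most reads held 12.4, 11.9 and 12.4% of the counts, 12.3 ± 0.288%, and the 10 with the most held 10.4 ± 0.296%. Beyond that the counts were spread widely, and the most abundant 968 to 980 genes were needed to reach 50% of them. Besides these 4 genes, the 20 were Malat1, a nuclear RNA of speckles; mt-Co1, mt-Cytb, mt-Nd1 and mt-Nd5 of the respiratory chain; the elongation factors Eef1a1 and Eef2; the chaperones Hsp90ab1 and Hsp90aa1; Actb; the nucleolar proteins Ncl and Npm1; Pabpc1, which binds poly(A) tails; Trim28, a corepressor that silences retroviral elements in ESCs; Huwe1, a ubiquitin ligase with a very long mRNA; and the 57-nt locus Gm23935. Per length the order changed. Malat1, the 5th by counts, had 1722 ± 49.2 TPM, below Rn7sk, the small nuclear RNA that holds the elongation factor P-TEFb inactive, which had 7146 ± 22.9 TPM from 5553 to 5989 reads. The coding genes of the nuclear genome with the highest TPM were Eef1a1 (4345, 4478 and 4355 TPM), which brings aminoacyl-tRNA to the ribosome, and Hsp90ab1 (3472, 3622 and 3552 TPM), the constitutive cytosolic HSP90. Rplp1, of the ribosomal stalk (3210 ± 37.6 TPM), Actb, cytoplasmic actin (3122 ± 87.6 TPM), Eef2, the translocase of elongation (2361 ± 119 TPM), and Rps15, of the small subunit (2161 ± 87.7 TPM), came next. In this group the replicates separated Eef1a1 from Hsp90ab1 and Hsp90ab1 from the next genes. The values of Rplp1 and Actb overlapped, as did those of Eef2 and Rps15.

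Genes shorter than about the length of a read pair cannot be compared per length with the others. Gm23935, annotated as a miRNA of 57 nt at chr16:11144125-11144181, held 12590, 13173 and 13039 reads, and dividing by 57 nt gave it 92500 ± 4425 TPM, above every other gene. The whole miRNA class, all under 200 nt, held 0.224% of the counts but 11.4 ± 0.496% of the TPM. Mir6236 held 624, 1290 and 986 reads, a CV (SD over mean) of 32.9%. For this reason shares of TPM are also given for genes of 200 nt or more.

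By biotype, protein-coding genes held 88.1, 88.8 and 88.2% of the counts (88.4 ± 0.371%), which became 67.3 ± 0.757% of the TPM over all genes and 79.3% over genes of 200 nt or more. The lincRNA class held 7.73 ± 0.235% of the counts, of which Gm26917 and Gm42418 made up 6.89 ± 0.234 percentage points, and only 298 of its 5624 genes (5.30%) were expressed. The mitochondrial rRNAs held 1.54 ± 0.079%, and processed pseudogenes, 333 of 9653 of which were expressed, held 0.363%. Loci awaiting experimental testing, the TEC class, held 0.537% with 723 of 3180 genes expressed. The small nucleolar RNAs, which guide rRNA modification, held 0.107 ± 0.0101% of the counts over 100 expressed genes, with Snora73b, a guide needed for rRNA cleavage, the highest at 3134 ± 280 TPM. Sequence shared between genes went with low values: of 681 coding genes with at least 90% of their 75-nt words found in another gene, 2.20% were expressed, against 61.2% of the 17383 coding genes with under 10% shared. Reads that align to several places are not counted, so levels of near-identical copies are lower bounds.

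Among long noncoding and structural RNAs with a known function, 19 of 20 listed genes were at 1 TPM or more and 8 at 100 TPM or more. Terc, the RNA template of telomerase, was at 640, 608 and 617 TPM. Lncenc1, a noncoding RNA of naive ESCs, reached 313 TPM on average, and Gas5, a host of small nucleolar RNAs, 155 TPM. Of the imprinted RNAs of the Dlk1-Dio3 region, Rian was at 130 TPM and Meg3 at 122 TPM, and H19, an imprinted RNA next to Igf2, was at 89.1 TPM. The paraspeckle RNA Neat1 was lower, at 35.7 TPM, as was Kcnq1ot1, the antisense RNA of an imprinted cluster, at 44.1 TPM. Rmrp, the RNA of RNase MRP, had no read and Rpph1, the RNA of RNase P, 2 to 3 reads per library, although both RNAs are needed by every cell; their levels here are therefore not read as expression.

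The gene families fell into 3 broad ranges when compared by the median TPM of their members. Apart from the mRNAs of the mitochondrial genome (median 1113 TPM), the elongation factors and cytosolic ribosomal proteins were at the top. All 6 translation elongation factors were above 1 TPM with a median of 706 ± 21.3 TPM, and 83 of 84 cytosolic ribosomal protein (RP) genes with a median of 536 ± 10.2 TPM. The RP genes ran from Rplp1 to Rpl3l, a muscle form at 0.835 TPM on 5, 1 and 4 reads, and together held 57206, 58928 and 57210 TPM, 5.78 ± 0.0993% of all. The 52 genes of the large subunit summed to 34216 ± 601 TPM and the 32 of the small subunit to 23565 ± 404 TPM, a ratio of 1.44, 1.45 and 1.46. The 47 initiation factors had a lower median of 137 ± 5.44 TPM and were led by Eif5a, the hypusine-carrying factor, at 1024 ± 35.3 TPM. The 78 mitochondrial RP genes had a median of 46.3 TPM, and Mrpl12 was the highest at 209 TPM.

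Histone genes were abundant in these libraries, which were made without poly(A) selection. Of the 67 replication-dependent histone genes, which are transcribed in S phase, 58 were at 1 TPM or more, 50 at 100 TPM or more, and the median was 320 ± 16.2 TPM. They held 2.72, 2.86 and 2.75% of all TPM. Summed by class, H4 had 8817 ± 213 TPM, H2B 6009 ± 158, H3 5111 ± 142, H1 3985 ± 108 and H2A 3865 ± 175 TPM. The order was the same in each library, although H1 and H2A were as close as 4107 and 4064 TPM in control 2. The highest members were Hist1h1a, a linker histone, at 1734, 1789 and 1716 TPM, and Hist1h4k, a core histone, at 1579, 1602 and 1492 TPM. Of the 9 genes below 1 TPM, 5 shared at least 90% of their words with another gene, so the sums by class are lower bounds. The 11 variant histones, made outside S phase as well, had a median of 70.0 TPM, and H2afx, the variant phosphorylated at DNA breaks, was the highest at 726 ± 23.1 TPM.

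The machinery of replication, protein folding and splicing formed the next range. All 9 minichromosome maintenance genes were at 10 TPM or more with a median of 243 ± 8.44 TPM, and the 6 subunits of the MCM2-7 helicase lay close to each other, from Mcm6 at 205 TPM to Mcm3 at 367 TPM, a ratio of 1.80 ± 0.00991. The 8 subunits of the TRiC/CCT chaperonin, which folds actin and tubulin, ran from Cct7 at 235 TPM to Cct2 at 635 TPM, a ratio of 2.73 ± 0.027. The 20S proteasome was less even: its alpha subunits spanned 3.08 ± 0.0749 fold, from Psma2 at 108 TPM to Psma6 at 333 TPM, and its beta subunits 4.17 ± 0.229 fold, from Psmb5 at 62.5 TPM to Psmb6 at 261 TPM. All 20 hnRNP genes were above 10 TPM (median 233 ± 10.8 TPM, Hnrnpa1 the highest at 938 TPM), and 10 of 11 SR splicing factor genes reached 100 TPM (median 158 ± 10.0 TPM, Srsf2 at 530 TPM). The order of the subunits within these complexes rests on mRNA per length and says nothing of the amount of protein.

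In energy metabolism, the 13 mRNAs of the mitochondrial genome split into 7 at 1000 TPM or more and 6 below 1 TPM. The 7 were led by mt-Nd1 (7817, 7611 and 7605 TPM) and mt-Co1 (7930, 7455 and 7550 TPM), subunits of complex I and of cytochrome oxidase, and the lowest of them was mt-Nd6, the only one transcribed from the other strand, at 1113 ± 97.1 TPM. Of the 6 at or near 0, mt-Atp6, mt-Co2, mt-Co3, mt-Nd3 and mt-Nd4l share 97.8 to 99.9% of their words with another gene, so their values cannot be read as low expression. The 85 nuclear-encoded genes of the respiratory chain were at 1 TPM or more in 81 cases, and Atp5b, a catalytic subunit of ATP synthase, was the highest at 826 ± 3.44 TPM. The 24 glycolytic enzyme genes had a median of 56.7 TPM, and Pkm (pyruvate kinase) was the highest at 903 ± 1.30 TPM.

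Families of differentiated tissues lay at the bottom. The 44 collagen genes had a median of 1.01 TPM with 22 at 1 TPM or more, the 39 Hox genes 0.24 TPM with 11, the 53 keratins 0.0622 TPM with 8, and the 100 cytochromes P450 0.0367 TPM with 18. The highest collagen, keratin and cytochrome P450 genes stood apart from the rest: Col18a1, a basement membrane collagen, was at 324 ± 21.8 TPM, Krt18, a keratin of simple epithelia, at 39.0 ± 9.31 TPM, and Cyp51, an enzyme of cholesterol synthesis, at 86.5 ± 4.10 TPM. Of 1135 olfactory receptor genes 1010 had no read and 6 reached 1 TPM, with Olfr836 the highest at 4.96 TPM, and of 324 vomeronasal receptor genes 272 had no read. The 394 zinc finger genes named Zfp were mostly expressed at low levels (353 at 1 TPM or more, median 10.9 TPM), and the highest was Zfp42 (REX1), a marker of naive cells.

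**Figure D2:**
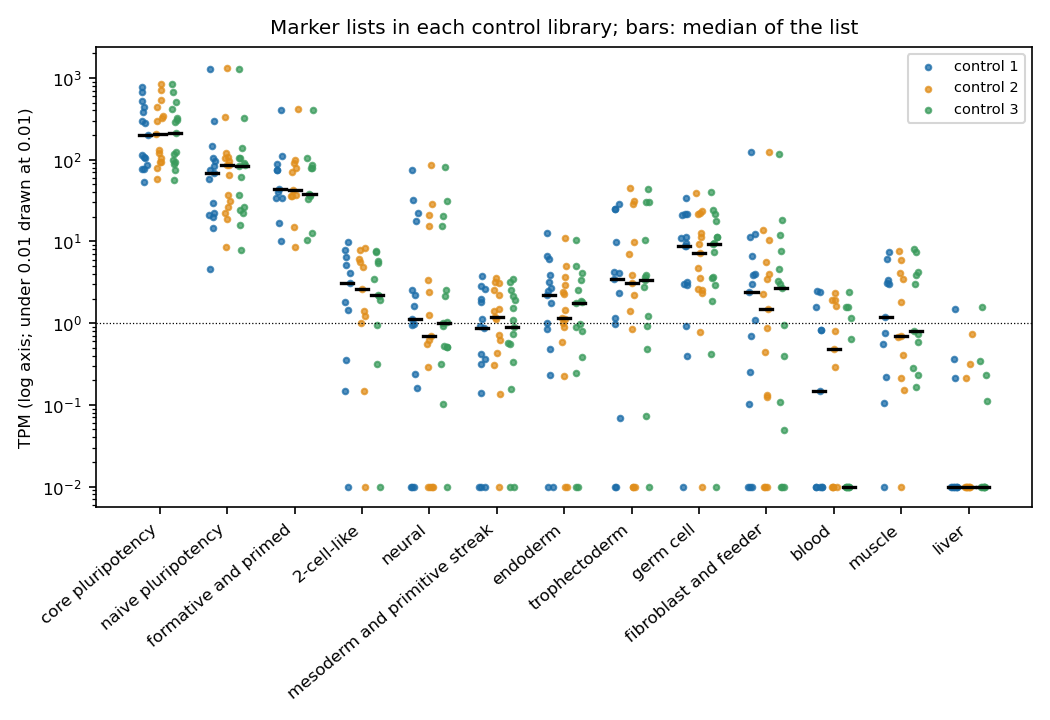
Levels of the genes of each marker list as TPM on a log axis, with values under 0.01 drawn at 0.01; each point is a gene in 1 of the 3 control libraries (colours), the bar is the median of the list in that library and the dotted line is at 1 TPM. The medians of the core (203 to 212 TPM) and naive lists lie above those of all lineage lists, of which the germ cell list is the highest.

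Pluripotency genes were compared with genes of the lineage lists. The median log2(TPM + 0.1) of the 30 core and naive pluripotency genes was 6.66, 6.71 and 6.66, and that of 73 genes of neural, mesoderm, endoderm, trophectoderm and germ cell lists 1.21, 1.19 and 0.99. The difference was 5.45, 5.52 and 5.67, mean 5.55 ± 0.11, which is 46.8-fold. No test was made, since genes are not replicates. The lists still overlapped in level: 18 lineage genes were above Prdm14, the lowest pluripotency gene.

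Of the 15 core genes, 11 reached 100 TPM, and the list medians were 203, 204 and 212 TPM. Utf1, a chromatin factor of pluripotent cells, was the highest at 768, 833 and 841 TPM. Pou5f1, the central POU factor, had 684 ± 19.5 TPM, L1td1, an RNA-binding protein derived from a retrotransposon, 527 ± 15.9 TPM, and Lin28a, which blocks maturation of let-7, 435 ± 16.8 TPM. Tdgf1 (Cripto), a coreceptor of Nodal, had 379, 343 and 326 TPM, Sox2, the partner of OCT4 on DNA, 308 ± 13.9 TPM, and Sall4, a zinc finger repressor, 289 ± 8.26 TPM. Nanog was lower than these, at 108, 131 and 125 TPM, and its values overlapped those of Fgf4, the growth factor that primes ESCs for differentiation (mean 117 TPM). Foxd3, a forkhead factor, was at 55.8 ± 2.43 TPM.

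Of the 15 naive genes, all were at 1 TPM or more, 14 at 10 TPM or more and 5 at 100 TPM or more. Dppa5a, an RNA-binding protein of early embryos, was at 1292, 1328 and 1275 TPM, above every core gene. Zfp42 followed at 318 ± 21.7 TPM, then Gbx2, a homeobox target of LIF, at 137 ± 12.7 TPM and Klf5 at 97.5, 104 and 104 TPM. The factors Klf2 (90.3 ± 5.52 TPM), Nr0b1 (DAX1, 82.2 ± 6.53 TPM) and Esrrb (79.7 ± 9.98 TPM) could not be ordered beyond their spread. Klf4, a target of LIF through STAT3, had 61.7 ± 3.63 TPM, Tfcp2l1, also a target of STAT3, 34.2 ± 4.35 TPM and Dppa3 (STELLA), which protects methylation in the zygote, 25.8 ± 5.73 TPM. Prdm14, a repressor of the primed programme, had 4.56, 8.44 and 7.81 TPM on 29, 55 and 47 reads.

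Genes of the formative and primed states were present beside the naive ones. All 11 were at 1 TPM or more, and the list medians were 43.4, 43.1 and 38.1 TPM. Dnmt3b, a de novo DNA methyltransferase, was at 410 ± 7.62 TPM, Pou3f1 (OCT6) at 105 ± 5.81 TPM, Otx2, a factor of the exit from naive pluripotency, at 35.4 ± 1.68 TPM, and Fgf5, of the epiblast after implantation, at 9.68 ± 0.911 TPM. Of 11 genes of the 2-cell-like state, which a small fraction of ESCs enters, 8 reached 1 TPM and none 10 TPM. Zscan4d of that list had 56, 45 and 41 reads, 8.47 ± 1.27 TPM, and its near-identical copies make its level uncertain. A bulk library cannot tell few cells with a high level from many with a low one.

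Among the 73 lineage genes 44 were at 1 TPM or more, 16 at 10 TPM or more, and 6 had no read. Of the 15 neural genes 7 reached 1 TPM and 4 reached 10 TPM, Tubb3 (a neuronal beta-tubulin, 80.9 ± 5.26 TPM), Nes (nestin, 30.5 ± 1.85 TPM), Sox1 (a factor of the neural plate, 21.1 ± 1.02 TPM) and Neurod1 (a neuronal bHLH factor, 16.2 ± 1.45 TPM). Of 13 trophectoderm genes 9 reached 1 TPM and 4 reached 10 TPM, among them the simple keratins Krt18 (28.3, 45.2 and 43.6 TPM) and Krt8 (25.1, 31.4 and 30.0 TPM) and Tfap2c, an AP-2 factor shared with germ cells, at 27.9 ± 2.99 TPM. Germ cell genes were the most often expressed of the 5 lists, with 13 of 15 at 1 TPM or more and 7 at 10 TPM or more. They included Mael, of the piRNA pathway (37.9 ± 3.25 TPM), Stra8, which licenses meiosis (22.9 ± 1.65 TPM), and Piwil2, a PIWI protein (21.9 ± 0.571 TPM). The mesoderm and primitive streak list had 6 of 15 genes at 1 TPM or more and none at 10 TPM. The endoderm list had 9 of 15 at 1 TPM or more and only Dab2, an endocytic adaptor, at 10 TPM or more (11.4 ± 1.12 TPM).

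The enzymes that build and bind the mRNA cap, the pathway of the series, were all at 1 TPM or more in the controls. The nuclear cap-binding subunits Ncbp1 (125 ± 1.59 TPM) and Ncbp2 (79.5 TPM) were the highest. Rnmt, the cap guanine-N7 methyltransferase, was at 47.3 TPM, its activator Ramac at 22.9 TPM, Rngtt, the capping enzyme itself, at 34.8 TPM, and Pcif1, which methylates a first adenosine further, at 20.7 TPM. The ribose methyltransferases were the lowest, Cmtr2 at 8.55 TPM and Cmtr1 at 6.97, 7.13 and 5.83 TPM on 168, 176 and 133 reads. Cmtr1 shares 69.0% of its words with other genes, Gm28043 of the same strand included, and reads in such overlaps are set aside as ambiguous, so its level is a lower bound.

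Promoter sequence was set beside level for the 16849 coding genes with an entry in RefSeq's table of GRCm38.p6, over the 250 bases before the first listed start. Promoters rich in CG dinucleotides are typical of genes active in most cells, and a TATA box is typical of a smaller class of regulated genes. The median number of CG was 1 in genes with no read, 2 in all genes under 1 TPM, 13 in genes of 1 to 10 TPM, 17 in genes of 10 to 100 TPM and 18 in genes of 100 TPM or more, against 10 over all. Above 1 TPM the step was thus small next to the one around 1 TPM. The letters TATAA on the strand of the gene, between 40 and 16 bases before the start, were in 4.62% of all these promoters, 11.02% of those of genes with no read, 8.52% of those of all genes under 1 TPM, 2.92% at 1 to 10 TPM, 1.32% at 10 to 100 TPM and 3.53% at 100 TPM or more. The share was thus lowest in the range of 10 to 100 TPM. The reverse complement, TTATA, was in the same window in 1.63% of all promoters. Its share also varied with level, from 3.77% with no read and 2.88% under 1 TPM to 1.15% at 1 to 10 TPM. It was 0.614% at 10 to 100 TPM and 0.883% at 100 TPM or more. The median GC content was 42.8% with no read, 59.2% at 1 to 10 TPM and 60.8% at 10 to 100 TPM. The part of base composition in the shares of TATAA was not tested. These counts describe letters only, and were not tested.

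Abundant families differed in their promoters. Those of the replication-dependent histone genes had a median of 9 CG and 17 of 61 (27.9%) held TATAA, whereas the RP genes had a median of 17.5 CG over 64 promoters and TATAA in 7.81%. The reverse complement, TTATA, was in 8.20% of the histone and 1.56% of the RP promoters. The hnRNP and SR genes had medians of 23 and 25 CG, with TATAA in 0 of 18 and 2 of 11 (18.2%). Glycolytic enzyme genes had the same median of 9 CG as histone genes with TATAA in 2 of 22, and tubulin genes a median of 12 CG with TATAA in 2 of 14. Keratins, almost unexpressed, held TATAA in 17 of 36 promoters (47.2%) and a median of 3.5 CG, and 936 olfactory receptor promoters had a median of 1 CG. Of the pluripotency genes with an entry, 0 of 10 core promoters and 4 of 9 naive promoters (Klf2, Klf4, Nr0b1 and Tfcp2l1) held TATAA. The 250 upstream bases of 4 genes are printed to show the range, with CG and the TATAA of the window in capitals: Utf1 (chr7:139943606-139943855, plus strand; 14 CG) as the highest core gene, Klf2 (chr8:72318812-72319061, plus strand; 29 CG and TATAA) as a naive gene, Hist1h1a (chr13:23763418-23763667, plus strand; 11 CG and TATAA) as the highest histone gene and Olfr1 (chr11:73399496-73399745, minus strand; 0 CG) as a gene without a read.
Utf1: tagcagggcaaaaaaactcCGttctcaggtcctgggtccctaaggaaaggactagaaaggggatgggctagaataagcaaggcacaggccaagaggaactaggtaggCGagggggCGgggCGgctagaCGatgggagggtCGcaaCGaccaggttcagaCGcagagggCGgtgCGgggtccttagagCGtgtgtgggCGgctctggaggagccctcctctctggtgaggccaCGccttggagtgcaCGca
Klf2: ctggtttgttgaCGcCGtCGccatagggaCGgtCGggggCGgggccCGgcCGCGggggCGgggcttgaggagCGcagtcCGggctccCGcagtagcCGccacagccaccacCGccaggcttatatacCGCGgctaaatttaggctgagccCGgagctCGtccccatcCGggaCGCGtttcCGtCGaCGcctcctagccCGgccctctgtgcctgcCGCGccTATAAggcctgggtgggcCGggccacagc
Hist1h1a: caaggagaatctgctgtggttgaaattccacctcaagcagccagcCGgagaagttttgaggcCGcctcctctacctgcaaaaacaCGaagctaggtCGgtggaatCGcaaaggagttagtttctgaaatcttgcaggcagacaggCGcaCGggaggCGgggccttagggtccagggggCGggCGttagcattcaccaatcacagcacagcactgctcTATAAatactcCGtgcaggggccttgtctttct
Olfr1: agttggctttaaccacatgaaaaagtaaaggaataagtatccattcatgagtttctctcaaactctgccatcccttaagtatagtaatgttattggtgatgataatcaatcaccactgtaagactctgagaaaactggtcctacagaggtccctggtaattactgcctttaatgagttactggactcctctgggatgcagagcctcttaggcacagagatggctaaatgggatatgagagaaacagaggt
Hist1h1a was expressed at 1746 TPM, Utf1 at 814 TPM and Klf2 at 90.3 TPM, so of these 3 the gene with the most CG had the lowest level.

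**Figure D3:**
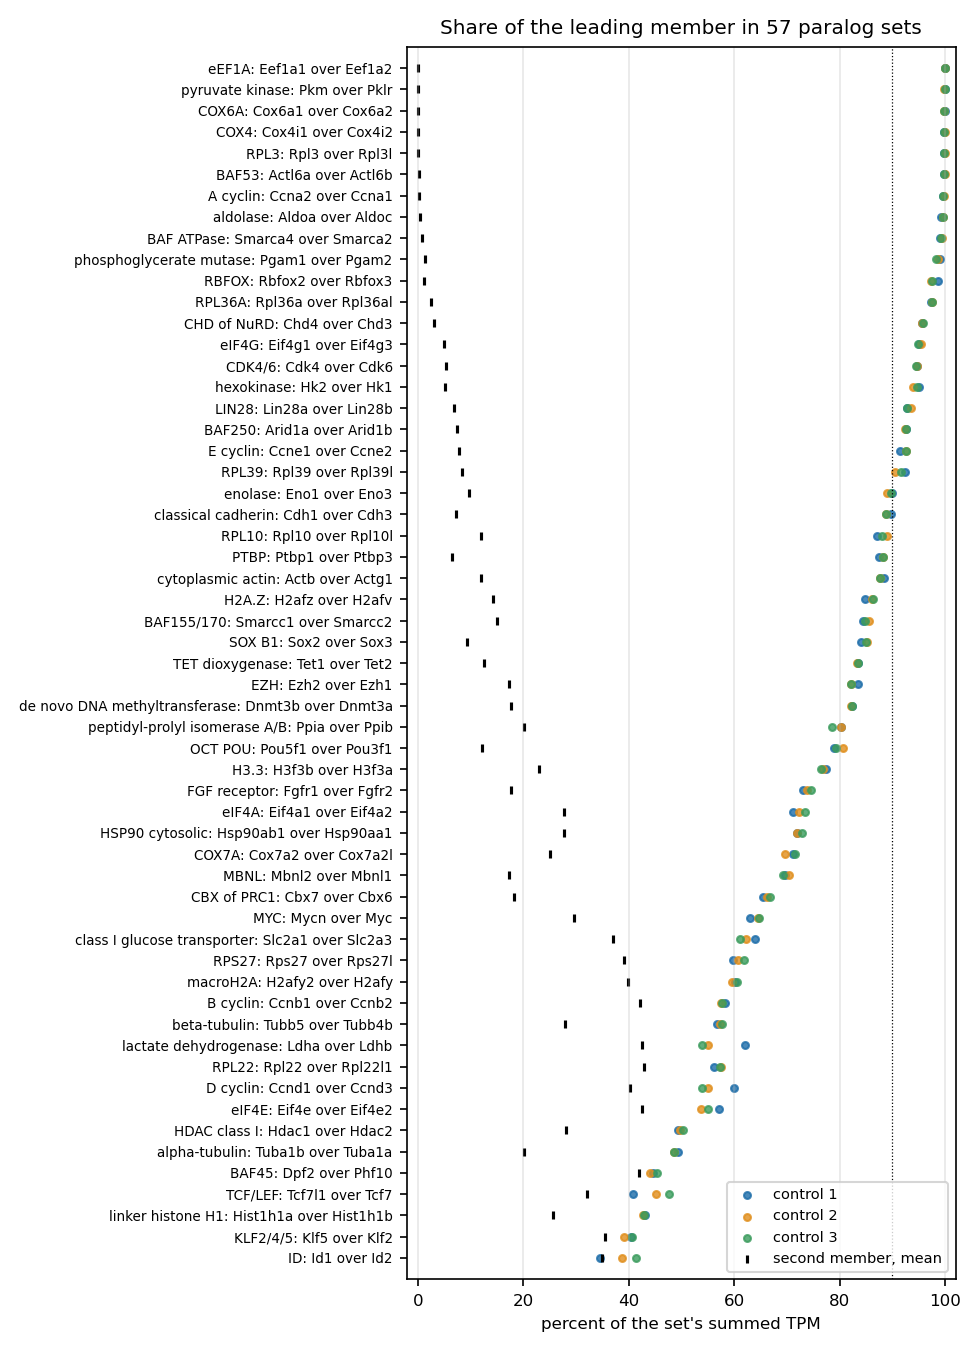
Share of the summed TPM of each paralog set held by its leading member, in percent, with a coloured point for each of the 3 control libraries, a black mark for the mean share of the second member and a dotted line at 90%. The sets run from 99.96% (Eef1a1) to 38.3% (Id1), and the points of a set mostly lie on top of each other except for Ldha, Ccnd1, Tcf7l1 and Id1.

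Many proteins are encoded by paralogs used in different tissues, and 57 such sets were compared by the share of their summed TPM. In 20 sets 1 member held 90% or more in each library, in 30 the leading member held 50 to 90%, and in 7 it held less. The leading member was the same in all 3 libraries in 56 of 57 sets, and the median SD of its share was 0.539 percentage points, so the choices were tight between replicates. The exception was the ID set of dominant-negative bHLH factors, in which Id1 held 34.6, 38.8 and 41.4% and Id2 42.3, 35.1 and 27.7%.

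The 20 sets with a member at 90% or more came from several kinds of protein. In translation and metabolism, Eef1a1 held 99.96 to 99.97% against Eef1a2, the form of neurons and muscle, and Pkm 99.9% against Pklr, the form of liver and red cells. Cox4i1, Cox6a1 and Rpl3 each held 99.9% against forms of lung or striated muscle. Aldoa held 99.5 ± 0.173% and Hk2, the inducible hexokinase, 94.6 ± 0.626%. Among remodellers, Smarca4 (BRG1) held 99.3 ± 0.172% against Smarca2 (BRM), Actl6a 99.9 ± 0.0773% against its neuronal paralog Actl6b, Arid1a 92.5% against Arid1b, and Chd4 95.7 ± 0.158% of the NuRD helicases. In the cell cycle, Ccna2 held 99.7 ± 0.0803%, Cdk4 94.6 ± 0.0947% against Cdk6 and Ccne1 92.3 ± 0.661% against Ccne2. Lin28a held 93.1 ± 0.495% against Lin28b, and Rbfox2, a splicing factor, 97.9 ± 0.701% of its set.

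Among regulators of development and chromatin below 90%, Sox2 held 84.8 ± 0.564% of the SOX B1 set, with Sox3 at 9.39% and Sox1 at 5.81%, and Dnmt3b 82.3 ± 0.147% of the de novo methyltransferases. Tet1, which oxidizes 5-methylcytosine, held 83.4 ± 0.120% of its set, Ezh2, the methyltransferase of PRC2, 82.6 ± 0.821%, and Cbx7, the chromobox protein of PRC1 in ESCs, 66.2 ± 0.651%. Mycn held 63.1, 64.5 and 64.7% of the MYC set, above Myc at 30.8, 28.98 and 29.4%, with Mycl the rest. The factors Klf5, Klf2 and Klf4, which can replace each other in naive cells, held 40.1, 35.6 and 24.3% on average. In the linker histone set, Hist1h1a led with 42.9 ± 0.200%, before Hist1h1b at 25.7%, Hist1h1c at 14.6% and Hist1h1e at 10.3%. Hist1h1d held 3.59%, although its 2632, 2945 and 2440 reads exceeded the 1913, 2074 and 1753 of Hist1h1b. The order below Hist1h1a thus depends on the exon length by which reads are divided.

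Some ubiquitous proteins also drew on 2 genes. Slc2a1 (GLUT1) held 64.0, 62.2 and 61.2% of class I glucose transporters, with Slc2a3 (GLUT3), which has a higher affinity for glucose, at 35.5, 37.4 and 38.2%. In reads Slc2a3 was ahead, with 3964, 3818 and 3751 against 3457, 3073 and 2906, so the lead of Slc2a1 rests on the division by exon length. Rpl22 held 56.99 ± 0.772% against Rpl22l1, Rps27 60.8 ± 1.02% against Rps27l, and Rpl10 88.1 ± 0.912% against Rpl10l, a retrogene known from spermatogenesis at 85.9, 74.6 and 75.8 TPM. Rpl10 shares 29.8% of its words with other genes against 0.3% for Rpl10l, and Rps27 22.4% against 5.4% for Rps27l. The shares of Rpl10 and Rps27 may therefore be too low. For Rpl22 (0.9%) and Rpl22l1 (11.9%) the shared words go the other way. For the leading member, the largest spread between libraries was in lactate dehydrogenase, where Ldha held 62.0, 55.0 and 54.0% with Ldhb at 214, 265 and 269 TPM. Ccnd1 likewise held 59.9, 55.1 and 54.0% of the D cyclins, with Ccnd3 at 46.5, 55.8 and 56.3 TPM. In both sets control 1 stood apart from the other libraries. The lead of Ccnd1 also rests on length, since Ccnd3 had 1011, 1243 and 1159 reads and Ccnd1 896, 888 and 783.

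**Figure D4:**
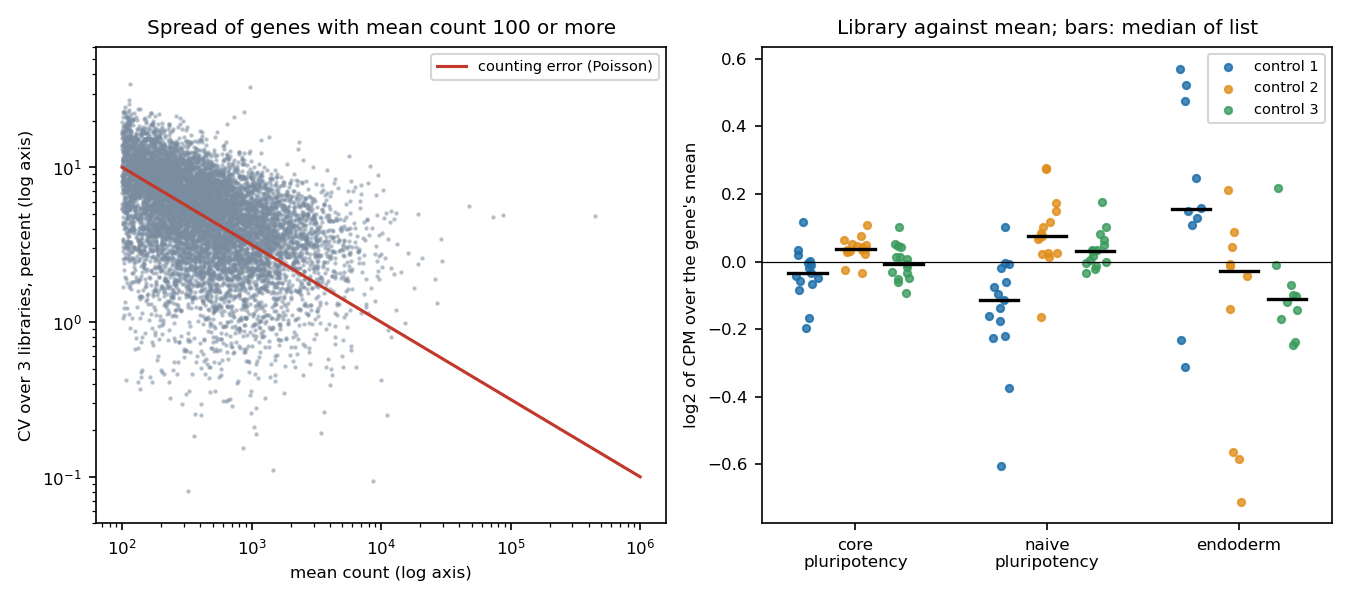
Left, coefficient of variation (CV, percent) of each gene over the 3 control libraries against its mean count, both on log axes, with counting (Poisson) error as a line; the most abundant genes lie above the line. Right, log2 of the CPM of each library over the mean of the gene for genes of 3 marker lists with a mean count of 10 or more, with the list median as a bar (naive list −0.11 in control 1, endoderm list 0.15).

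The spread between the libraries was above counting error, by little in genes of few reads and clearly in the most abundant genes. Over 8806 genes with a mean count of 100 or more the median CV was 4.99%, 10% of the genes were above 10.7%, and the variance was 1.16 times the Poisson value in the median. The median CV was 7.10% at 100 to 300 reads, where the Poisson CV at the median count is 7.41%. It fell to 2.96% at 3000 to 10000 reads (Poisson CV 1.55%) and to 2.70% in the 34 genes above 10000 reads (0.877%). With 3 libraries, counting error alone puts the median CV and the median variance ratio below the Poisson value. The excess over counting error is therefore larger than these medians show. The common biological coefficient of variation of edgeR, the spread beyond counting error, was 3.61%. For 1665 genes (18.9%) the variance was over 3 times the Poisson value, and counting error alone would put 4.98% there; these genes had their highest value in control 1, 2 and 3 in 553, 564 and 548 cases and their lowest in 624, 404 and 637 cases. Each pair of libraries had a Pearson r of 0.992 across genes, which are not independent replicates, on the log2 scale. All pairs differed by more than sampling noise, with a chi-square of 1.66 to 1.80 per gene where sampling alone gives about 1, so no library was a copy of another.

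The 10 coding genes with the highest CV at 100 reads or more showed no common direction. Zfp672, a zinc finger gene, had 150, 128 and 68 reads (CV 34.4%), and Bnip3, a mitophagy receptor induced by hypoxia, 148, 100 and 87 reads. Krt18, the keratin named above, was at 12.8, 20.4 and 19.8 CPM. The reads of Rap2a, a small GTPase, were 108, 173 and 114, and those of Car3, a carbonic anhydrase, 132, 105 and 76. The other genes were Ak3, Tmem63a, Usp49, Rab11fip5 and Cubn. Cubn, an endocytic receptor of the yolk sac, was the most abundant of the 10, with 1111, 749 and 768 reads.

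The naive list differed between the libraries. Of its 15 genes 13 had their lowest level in control 1 and 12 their highest in control 2, where, of 12593 coding genes with a mean count of 10 or more, 34.2, 30.5 and 35.4% were lowest and 33.4, 33.6 and 33.0% highest in control 1, 2 and 3. Esrrb was at 130, 164 and 160 CPM, Tfcp2l1 at 86.7, 109 and 109 CPM and Prdm14 at 3.68, 6.78 and 6.33 CPM. The exceptions included Gbx2, which was highest in control 1 with 792, 677 and 720 reads. The median log2 deviation of the naive list from the mean of each gene was −0.11, 0.07 and 0.03. The core list deviated less, with −0.03, 0.04 and −0.01, and Pou5f1 was at 482, 497 and 473 CPM. Deviations as large as that of the naive list were common in lists with fewer genes at 10 reads: the 2-cell-like list had 0.20, 0.10 and −0.14 over 5 genes, the fibroblast list 0.10, −0.16 and 0.09 over 10, the muscle list −0.05, −0.07 and 0.13 over 6 and the blood list 0.12, 0.15 and −0.08 over 3. The formative list, with −0.00, 0.02 and −0.02 over 11 genes, and the mesoderm list, with −0.02, −0.02 and −0.09 over 5, deviated little. None of these differences was tested.

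Most endoderm genes were highest where naive genes were lowest. Of 10 endoderm genes with a mean count of 10 or more, 8 were highest in control 1, and the median deviation was 0.15, −0.03 and −0.11. Over all coding genes with such a count, 33.4% were highest in control 1. Of the 10 endoderm genes 3 had a variance over 3 times the Poisson value, as had 6 of 15 naive and 5 of 15 core genes. Over all genes with a mean count of 100 or more the share was 18.9%. Over the whole list of 15 genes the median level was 2.21, 1.14 and 1.76 TPM, 9 genes reached 1 TPM, and Afp and Ttr, secreted proteins of the visceral endoderm, had no read. Gata6, a master regulator of primitive endoderm, had 98, 49 and 62 reads, Sox7 26, 12 and 14, and Pdgfra, a receptor of the same lineage, 164, 129 and 118. Genes of the basement membrane and of endocytosis, which primitive endoderm makes in quantity, were picked after their values had been seen and are given as a description. Among them Col4a1 had 1573, 1181 and 1291 reads, Col4a2 899, 604 and 687, Lama1 2695, 2065 and 2228, Lamb1 3269, 2752 and 2899, and the endocytic receptor gene Lrp2 8514, 7531 and 7813. Each of the genes given here with its reads was highest in control 1, but the lowest library differed. It was control 2 for the genes above other than Pdgfra, and control 3 for Pdgfra, Gata4 (38, 36 and 31 reads), Dab2 (231, 208 and 181) and Sox17 (12, 11 and 9). The other 2 of the 10 endoderm genes, Hnf4a and Hhex, went the other way and were lowest in control 1. Over the 10 genes, 2, 3 and 5 were lowest in control 1, 2 and 3. Endoderm cells in a library and a higher level per cell cannot be told apart in bulk RNA, and their part in the lower naive genes of control 1 was not tested. The trophectoderm list had a median deviation of −0.18, 0.07 and 0.06, lowest in control 1 like the naive list, with Krt8 and Krt18 at 15.5, 19.2 and 18.6 CPM and 12.8, 20.4 and 19.8 CPM.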

How the data were processed

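RNA was sequenced from 3 control libraries of E14 ESCs. The authors deposited counts, whole numbers of reads per gene for each library, and the file ends with lines of reads in no gene, ambiguous or aligned to several places, which were kept out of all totals. Per the methods and the submitters' processing notes, paired 75-nt reads were checked with FastQC, trimmed (Cutadapt) and aligned by STAR to GRCm38, after which Picard removed duplicates and featureCounts counted reads per gene; the closing lines follow the layout of HTSeq-count, so which counter wrote them is not certain. Removing duplicates can lower the counts of short and very abundant RNAs.

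Symbols, biotypes and exon lengths came from GENCODE M21, in which 54809 of the 54838 gene identifiers were found. TPM was computed from the counts over the union of exons. Logs are log2(TPM + 0.1). Shared sequence is the percentage of the 75-nt words of a gene found in another gene on either strand. Spread was estimated with edgeR 4.0.16 (R 4.3.3) without a test; Python 3.11.15 made the tables. The code was checked on simulated counts. Col4a3bp and Psmc3ip, whose symbols only resemble family members, were left out of families.

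Members and gene lists were chosen with earlier results of these data known. Named were members of the lists, families and paralog sets, the genes highest in CPM, in TPM, in TPM per biotype and in CV. No test was made, since no groups were compared. Alternatives were other thresholds, pseudocounts, lengths and scalings (TMM, DESeq2 1.42.0), the omission of Gm26917, and each library left out in turn. The value of 1 gene is not reported here.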

Additional observations from a re-analysis of the deposited data

How the results depend on the processing

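No paired analysis was possible because a single group was described and no test was made. Of 62 alternatives over 9 results, 49 stayed within the replicate spread or, for counts, within 1.5 times. This number is no measure of stability. Leaving out 1 of 3 libraries moves a mean over libraries by less than the SD by construction. The rule for counts is wide, and 20553 genes with at least 1 read in all 3 libraries passed it against 14636 expressed genes. The share of counts in the 20 most abundant genes (12.3%) was 7.05% without Gm26917, 26.97% in TPM and 20.96% in TPM over genes of 200 nt or more, the last chosen after seeing the data. The protein-coding share was 93.8% of counts without Gm26917, and 73.2% of TPM with the longest transcript as length or 79.3% over genes of 200 nt or more. The difference between pluripotency and lineage genes was 5.06 with a pseudocount of 1 and 5.69 in CPM. Lineage genes numbered 16 at 10 TPM, in place of 44 at 1 TPM. Paralog sets with a leading member at 90% or more were 12 of the 27 sets with under 10% of shared words, against 20 of all 57. At a share of 75% they numbered 34. The genes with spread above counting error numbered 695 at a ratio of 5. Leaving out single libraries gave a common coefficient of variation of 3.25 to 4.11%, the highest without control 2. Depth limits the lowest genes, since 3 reads are 0.370 to 0.404 CPM, and short or repeated genes cannot be read as levels.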
